A study of Homo sapiens with 3 samples.

Results

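The genes ND1, ND2, ND3, ND4, ND4L, ND5 and ND6 of mitochondrial DNA encode core membrane subunits of respiratory complex I. They were found by symbol among the 15488 gene symbols of a table of read counts, which held all 7, and all 7 passed the filter on low counts that 8840 genes passed (a mean CPM, counts scaled to the library total, of at least 1 over the libraries compared). The cells were 22Rv1, an established human prostate cancer line, transfected for 48 h. One group received 20 μg of a plasmid for transcript V1 of MLPH, which encodes the Rab27a effector melanophilin. Another group received 20 μg of a plasmid for transcript V4 of MLPH, and the controls received the empty vector. Each group had 1 sample, and the libraries of the V1 and V4 groups were compared. The empty vector was not analysed here, because the name of the remaining count column shows no transfection.

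Complex I takes electrons from NADH, passes them to ubiquinone and pumps protons out of the mitochondrial matrix. Its membrane arm holds the subunits encoded by mitochondrial DNA, while its matrix arm and the many accessory subunits come from nuclear genes. Mitochondrial DNA is transcribed into long precursors that are cut at the transfer RNAs lying between the genes. Neighbouring genes on the same strand therefore begin as parts of the same RNA. ND1, ND2, ND3, ND4L, ND4 and ND5 lie on the same coding strand, and ND6 is read from the opposite strand.

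The libraries were made from poly(A) RNA, which bears on these genes because several mitochondrial messages gain their stop codon only when the poly(A) tail is added. The last 30 bases of each gene are shown for that reason, 5′ to 3′, from GENCODE v29 transcripts on GRCh38. Capitals mark a complete stop codon of the mitochondrial code, or the letters left over after the last whole codon, which the tail completes.
ND1: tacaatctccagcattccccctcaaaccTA
ND2: ctatctccccttttatactaataatcttaT
ND3: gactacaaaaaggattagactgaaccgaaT
ND4: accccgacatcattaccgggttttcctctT
ND4L: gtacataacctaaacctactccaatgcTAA
ND5: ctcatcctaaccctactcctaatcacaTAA
ND6: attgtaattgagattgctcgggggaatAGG
The stop is incomplete in 4 genes (ND1, ND2, ND3 and ND4) and complete in 3 (ND4L, ND5 and ND6). ND6 also stands apart in composition. Read on its own strand it held 35.6% G and 7.05% C, whereas the other members held 9.50% to 12.1% G and 29.5% to 36.0% C.

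ND4L and ND4 are carried by the same messenger RNA with overlapping reading frames, which matters for how their reads are counted. The end of ND4L and the start of ND4 are shown next, with the bases they share in capitals.
ND4L end: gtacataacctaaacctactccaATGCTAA
ND4 start: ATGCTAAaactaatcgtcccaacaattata
The overlap is 7 bases long. The labels and the table do not say how reads that cross it were assigned, nor what strand setting the counting had. Without strand, reads of ND6 cannot be told apart from reads of the opposite precursor across the same place. Nuclear DNA also carries copies of mitochondrial genes, and the treatment of reads that match both is not stated either, so the members' counts are uncertain to that extent.

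All 7 members were higher in the V4 library than in the V1 library. ND4L, a small membrane subunit, was 1.57-fold higher and ND5, the subunit at the far end of the membrane arm, was 1.33-fold higher. ND2, ND4 and ND1 were 1.15-fold to 1.19-fold higher, and ND6 and ND3 were 1.10-fold and 1.08-fold higher. The median log2 ratio of V4 over V1 was 0.24 for the 7 members and -0.00 for all 8840 kept genes. Of those kept genes, 4386 had a log2 ratio above 0 and 4454 below. With 1 library in each group there was no test across samples, and each ratio describes these libraries, not the conditions. Intervals given with the ratios are 95% exact (Clopper-Pearson) conditional binomial intervals that cover counting error only. At these counts they are narrow, and they hold nothing of the spread between cultures or library preparations. Counts are relative to the rest of the library, so more mitochondrial RNA per cell and less of the other RNA cannot be told apart.

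The V1 library held 9253399 counts and the V4 library 9609381. MLPH itself had 7219 counts with V1 and 7773 with V4, a gene-level value that does not separate the transcripts. Of 10 markers of prostate epithelium, 7 were found and kept. Of these 4 had a log2 ratio of V4 over V1 above 0 and 3 below. CDH1, the E-cadherin gene, had 6389 counts with V1 and 8211 with V4, and KRT8, a keratin gene, 2085 and 1636. HOXB13, a homeobox gene of prostate epithelium, had 621 and 536 counts. KLK2, a kallikrein gene, was near the floor, with 8 and 13 counts. The 3 fibroblast markers found of 5 summed to 166 CPM with V1 and 5.0 CPM with V4. The collagen genes COL1A2 (976 and 4 counts) and COL3A1 (526 and 0 counts) were lower with V4, while LUM had 33 and 44 counts, with an interval of its ratio that included 1. Of 5 leukocyte markers only CD68 was kept, at 9.29 and 6.14 CPM, and of 4 endothelial markers 0 were kept. The part of these marker differences in the values of the mitochondrial genes was not tested.

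Within complex I, ND4 was by far the most abundant member. It encodes a proton-pumping subunit of the membrane arm and had 222104 counts with V1 and 266083 with V4. Among all genes of the table, that was rank 3 in both libraries. Per length, its level was 17418 CPM per kilobase with V1 and 20094 with V4. ND1, at the junction of the membrane and matrix arms near the ubiquinone site, came next in the V1 library at 9367 CPM per kilobase and stood at 10534 in the V4 library. ND4L had 8511 CPM per kilobase with V1 and 13083 with V4, which placed it below ND1 in the former and above it in the latter. ND2, another pumping subunit, had rank 4 among the members in both libraries at 7453 and 8646 CPM per kilobase.

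The lower end of the order held ND6, ND3 and ND5. ND6, the member read from the opposite strand, had 6517 CPM per kilobase with V1 and 6996 with V4. Its message is known to carry little or no poly(A) tail. The ND6 counts stood at rank 5 of the members per length in both libraries. As the strand setting is not known, they may include reads of RNA from the opposite strand. ND3, a small subunit beside the ubiquinone site, had 5227 and 5532 CPM per kilobase. ND5, the longest of the 7 and a pumping subunit, had 4428 and 5764. ND5 thus lay below ND3 in the V1 library and above it in the V4 library. The span from the lowest to the highest member per length was from 4428 to 17418 CPM per kilobase with V1 and from 5532 to 20094 with V4. No replicate spread is at hand, so which neighbours in this order differ beyond it is not known.

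**Figure D1:**
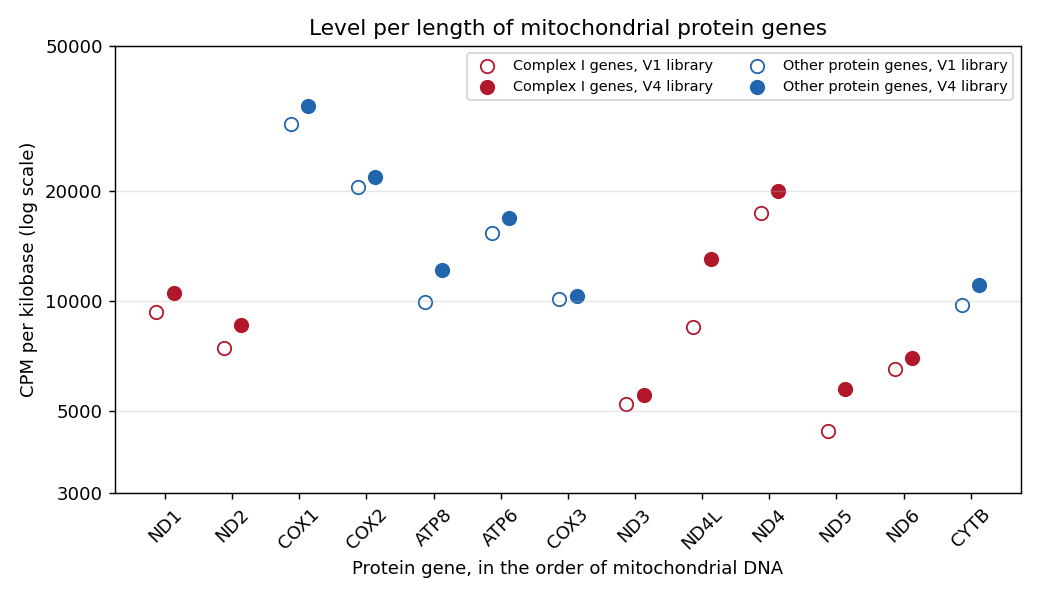
Level of the 13 protein genes of mitochondrial DNA in CPM per kilobase (log axis), in gene order, with open circles for the V1 library and filled circles for the V4 library, 1 library each. Complex I genes are red and the other protein genes blue. ND4 is the highest red gene in both libraries, and ND4L has the widest gap, from 8511 to 13083.

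The difference was widest at ND4L. It had 23390 counts with V1 and 37338 with V4, or 2528 and 3886 CPM. The ratio of V4 over V1, from counts scaled by the trimmed mean of M values (TMM), was 1.57 (interval 1.55 to 1.60). Of the 113 genes with a mean of at least 1000 CPM, ND4L had the highest ratio. ND5 had 74238 and 100364 counts, or 8023 and 10444 CPM, and a ratio of 1.33 (interval 1.32 to 1.35). It had rank 4 among those 113 genes.

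A middle group of 3 members lay close together. ND2 had 71859 counts with V1 and 86568 with V4, a ratio of 1.19 (interval 1.18 to 1.2). ND4 had a ratio of 1.18 (interval 1.17 to 1.19), and its counts are given above. ND1 had 82860 and 96775 counts and a ratio of 1.15 (interval 1.14 to 1.16). All 3 of these messages have an incomplete stop.

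The narrowest gaps were those of ND6 and ND3. ND6 had 31658 counts with V1 and 35295 with V4, a ratio of 1.10 (interval 1.08 to 1.12). ND3 had 16734 and 18393 counts, a ratio of 1.08 (interval 1.06 to 1.11). The shortest members, ND4L at 297 bases and ND3 at 346 bases, thus had the highest and the lowest ratio of the 7. The 3 genes with a complete stop held both of the highest ratios and, in ND6, the second lowest.

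Against a threshold of 1.5-fold (computed with a prior count of 2) and an interval that leaves out 1, only ND4L was higher, and 0 members were lower. Of all 8840 kept genes, 5.5% were higher and 7.1% lower by that rule. At 1.2-fold, ND4L and ND5 were higher, 2 of 7, where 13.4% of kept genes were higher and 14.4% lower. Low counts widen ratios, so the abundant genes are the closer background. Of the 113 genes at a mean of 1000 CPM or more, 9.73% were higher and 10.6% lower at 1.2-fold. The 113 genes include the members and other genes of mitochondrial DNA, so the members are set partly against themselves. These counts were read as a description of 7 genes, since members cut from the same precursor are not separate observations.

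**Figure D2:**
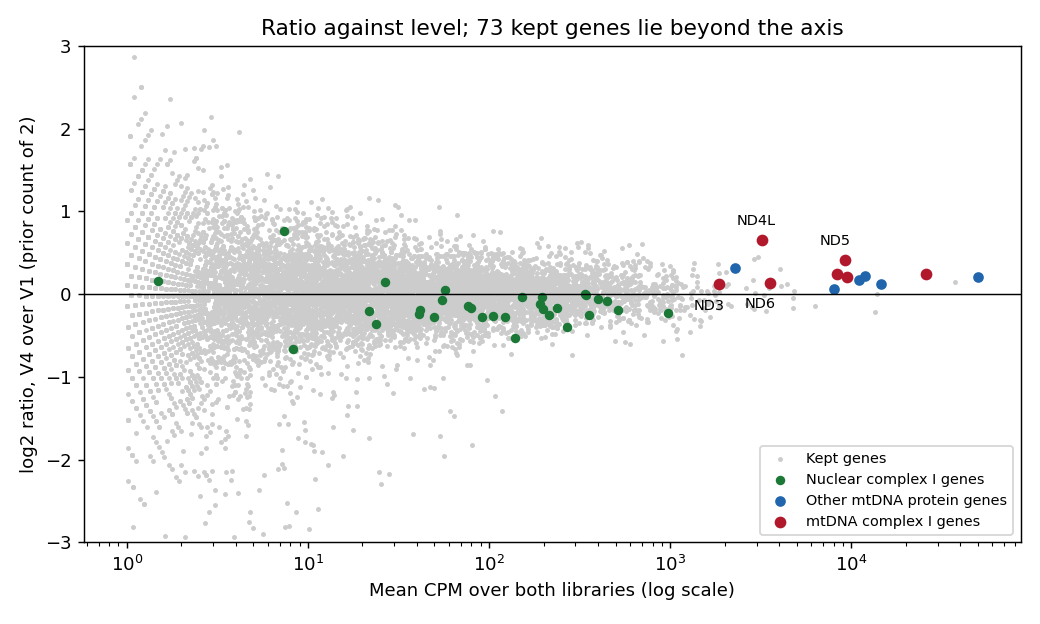
Log2 ratio of V4 over V1 (prior count of 2) against mean CPM (log axis) for the 8840 kept genes, 1 library per group, with 73 genes beyond the vertical limits. The 7 complex I genes of mitochondrial DNA (red) all lie above 0, from 0.12 for ND3 to 0.65 for ND4L. Nuclear complex I genes (green) lie mostly below 0.

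The other genes of mitochondrial DNA were read beside the members. The 6 other protein genes were also higher in the V4 library, with a median log2 ratio of 0.19 against 0.24 for the complex I genes. COX1, COX2 and COX3, the core subunits of cytochrome c oxidase, had ratios of 1.15, 1.09 and 1.04. CYTB, the cytochrome b gene of complex III, had a ratio of 1.17. The ATP synthase genes ATP8 and ATP6 had ratios of 1.25 and 1.12. Of the 13 protein genes, ND4L alone passed 1.5-fold, where 5.5% of all kept genes were higher by the 1.5-fold rule. The ribosomal RNA genes RNR1 and RNR2 had ratios of 1.08 and 1.11, inside the range of the protein genes. These RNAs made up 4.03% of all counts with V1 and 4.34% with V4.

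The complex I genes made up 5.65% of all counts with V1 (exact binomial interval 5.64% to 5.67%) and 6.67% with V4 (interval 6.65% to 6.68%). Of the counts on the 13 protein genes alone, they held 37.8% with V1 (interval 37.8% to 37.9%) and 39.4% with V4 (interval 39.3% to 39.4%). This share does not depend on how the libraries are scaled. Without ND4 and ND4L the remaining members held 20.1% with V1 and 20.7% with V4. The gain in share was therefore 1.53 percentage points with all 7 members and 0.66 points without those that overlap. Both gains are in points of the counts on all 13 protein genes. They start from unlike shares, 37.8% and 20.1% with V1, so they do not compare relative rises.

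Set against the other 12 protein genes of mitochondrial DNA, the members split. ND4L was 1.36-fold higher relative to the rest (Woolf interval of counting error 1.34 to 1.39), and ND5 1.16-fold higher (interval 1.15 to 1.17). ND2 and ND4 were 1.02-fold higher each, with intervals from 1.01 to 1.03. ND1 had a relative ratio of 0.99, with an interval that included 1. ND6 and ND3 were lower relative to the rest, at 0.95 (interval 0.93 to 0.96) and 0.93 (interval 0.91 to 0.95). Their own ratios were above 1 while their share of mitochondrial messages was smaller in the V4 library.

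The same ratios can also be set against each other in pairs of members, which adds no separate observation. Of the 21 pairs of members, 19 had a ratio of counts that differed between the libraries beyond counting error, and 2 did not. The latter were ND2 with ND4 (1.01, interval 0.99 to 1.02) and ND3 with ND6 (0.99, interval 0.96 to 1.01). At these counts the intervals are narrow. Pairs of other abundant genes were not compared, so how usual such differences are between these libraries is not known. ND4 and ND4L, which share a message, were among the pairs that differed. Per length, ND4 stood at 2.05 times ND4L in the V1 library and at 1.54 times in the V4 library, a change by a factor of 0.75 (interval 0.74 to 0.76). The other message with overlapping frames showed the same order, since ATP8, its first frame, had a ratio of 1.25 and ATP6, its second, 1.12. Each first frame is short, and reads at its end can also match the second. The part of length or of such reads in these ratios was not tested.

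The 22 transfer RNA genes, at which the precursors are cut, were present in the table as well. As a list their median log2 ratio was 0.32, and 20 of 22 were above 0, as were 4386 of all 8840 kept genes. The median weighs genes of few counts as much as abundant ones. Together the transfer RNA genes made up 0.262% of all counts with V1 and 0.284% with V4. Mature transfer RNAs are short and carry no poly(A) tail. Places are given below in gene order without regard to strand, so a neighbour need not come from the same precursor. The strand setting of the counting is not known for these genes either. High ratios were found at several places: TRNS2, after TRNH, had 29 and 49 counts and a ratio of 1.67 (interval 1.03 to 2.74). TRNQ, between ND1 and ND2, had 218 and 359 counts, a ratio of 1.62 (interval 1.37 to 1.93), and TRNA, after ND2, 116 and 173 counts, a ratio of 1.47 (interval 1.16 to 1.88). TRNR, which lies between ND3 and ND4L, had 164 counts with V1 and 234 with V4, a ratio of 1.41 (interval 1.15 to 1.73). TRNG, between COX3 and ND3, had 200 and 318 counts, a ratio of 1.57 (interval 1.31 to 1.88). TRNH, after ND4, had 149 and 216 counts, a ratio of 1.43 (interval 1.16 to 1.77). TRNL2, before ND5, had 194 and 238 counts and an interval that included 1. TRNL1, before ND1, was far more abundant at 5310 and 6700 counts, with a ratio of 1.24 (interval 1.2 to 1.29). TRNG and TRNR, on either side of ND3, thus had higher ratios than ND3 itself. The lowest ratios on mitochondrial DNA were those of TRNS1 at 0.88 (interval 0.81 to 0.96) and TRNN at 0.96 (interval 0.92 to 0.995). TRNS1 follows COX1, and TRNN is parted from COX1 by TRNC and TRNY, at 1.03 and 1.16.

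**Figure D3:**
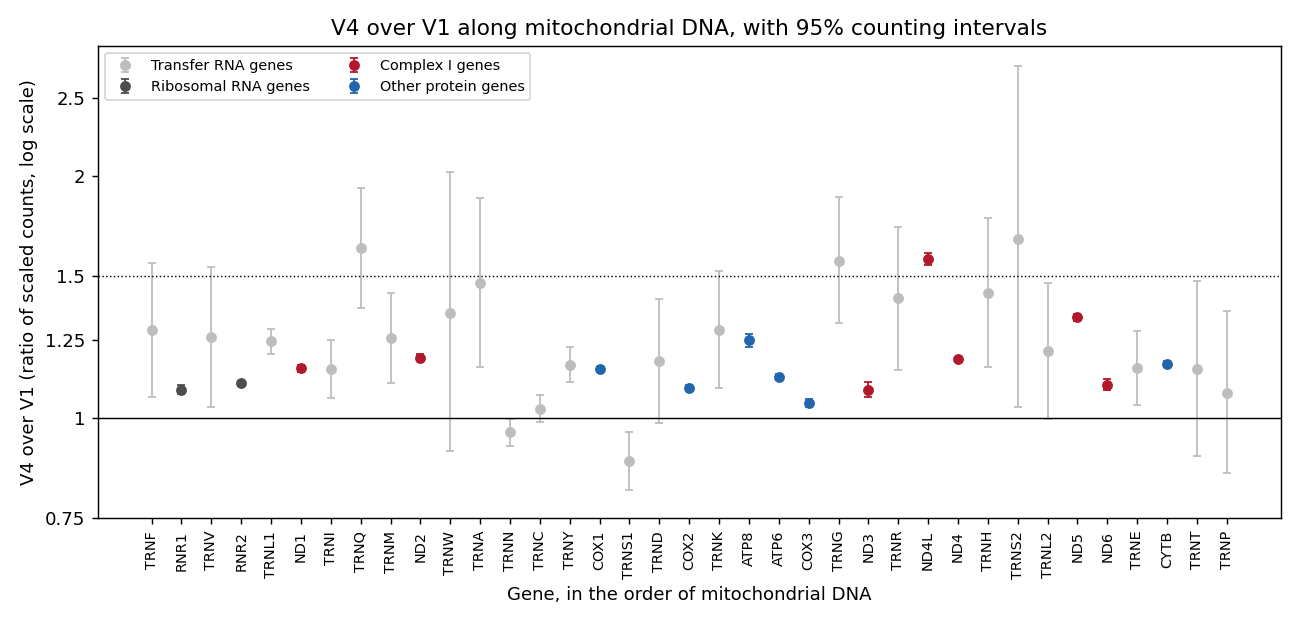
Ratio of scaled counts, V4 over V1 (log axis), for the 37 genes of mitochondrial DNA in gene order, with 95% exact counting intervals and 1 library per group. Complex I genes are red, other protein genes blue, ribosomal RNA genes dark grey and transfer RNA genes light grey. ND4L at 1.57 is the only protein gene above the dotted line at 1.5-fold.

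The nuclear partners of the same complex lay on the other side. Of 37 listed nuclear subunit genes, 32 were found and 31 kept. Their median log2 ratio was -0.18, with 26 below 0 and 5 above. Of all 8840 kept genes, 4454 were below 0 and 4386 above. By the 1.5-fold rule 1 nuclear subunit gene was higher, 1 was lower and 29 were neither. By that rule 5.5% of kept genes were higher and 7.1% lower. At 1.2-fold 1 nuclear subunit gene was higher and 8 were lower, where 13.4% of kept genes were higher and 14.4% lower. By the longest annotated transcript of each gene, the kept nuclear subunit genes had a median length of 1333 bases. That of kept genes with a length was 3370.5 bases, and short genes as a whole were lower in the V4 library. The 342 kept genes under 1000 bases, short genes of mitochondrial DNA among them, had a median of -0.15. With that length trend removed, the nuclear median was -0.079 and the median of the mitochondrial members 0.37. The trend was set mostly by nuclear messages, with the members themselves in the fit. Whether it holds for mitochondrial messages was not tested.

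Among the nuclear core subunits, which carry the flavin, the iron-sulfur clusters and the ubiquinone site, 6 of 7 were kept. NDUFS3, the most abundant, had 1970 counts with V1 and 1763 with V4, 1.13-fold lower (interval 1.06 to 1.21). NDUFS7, which holds the cluster next to ubiquinone, had 1070 and 902 counts and was 1.2-fold lower (interval 1.10 to 1.32). NDUFV1 and NDUFV2, of the NADH-oxidising tip, were 1.15-fold lower each, with intervals that included 1. NDUFS1, the largest subunit of the matrix arm, went the other way with 51 and 89 counts, 1.72-fold higher (interval 1.21 to 2.48).

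The accessory subunits, which surround the core, had 25 of 30 found and kept, 22 of them below 0. NDUFB2, the most abundant, had 9802 counts with V1 and 8502 with V4, 1.17-fold lower (interval 1.14 to 1.2). NDUFA11, a membrane arm subunit, had 1527 and 1073 counts, 1.44-fold lower (interval 1.33 to 1.56). NDUFS6, which binds zinc, was 1.31-fold lower (interval 1.24 to 1.39) and NDUFA5 1.29-fold lower (interval 1.07 to 1.56). NDUFC2, at 95 and 60 counts, was 1.61-fold lower (interval 1.15 to 2.26) and was the only nuclear subunit lower by the 1.5-fold rule.

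Assembly factors help build the complex and are not part of it. Of 19 listed, 15 were kept, with a median log2 ratio of -0.13, 5 above 0 and 10 below, and 0 past 1.5-fold. Among all 8840 kept genes, 4386 were above 0 and 4454 below. By the 1.5-fold rule 5.5% of kept genes were higher and 7.1% lower. TIMMDC1, which acts in the assembly of the module around ND1, was the most abundant at 2582 and 2263 counts, 1.16-fold lower (interval 1.09 to 1.22). The assembly factor gene C17orf89, also named NDUFAF8, was 1.34-fold lower (interval 1.25 to 1.44). COA1 was 1.37-fold higher (interval 1.13 to 1.65) on 197 and 273 counts, and FOXRED1 had 70 and 54 counts with an interval that included 1.

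The genes that make and keep mitochondrial RNA showed no shared direction. Those of mitochondrial transcription and replication had 8 kept of 14, a median of -0.00, 4 above 0 and 4 below. POLRMT, the mitochondrial RNA polymerase, had 99 counts with V1 and 55 with V4, 1.82-fold lower (interval 1.30 to 2.59). It was the 1 member of that list past 1.5-fold, where 5.5% of kept genes were higher and 7.1% lower. TFAM, which packages mitochondrial DNA and starts its transcription, had 1594 and 1802 counts, 1.12-fold higher (interval 1.04 to 1.19). TFB2M, the other initiation factor and the most abundant of the list, was 1.07-fold lower (interval 1.01 to 1.13). SSBP1, the single-strand binding protein of replication, was 1.12-fold lower (interval 1.02 to 1.23), and POLG2 had 61 and 71 counts with an interval that included 1.

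Genes of mitochondrial RNA processing and stability had 13 kept of 18, a median of 0.02, 7 above 0 and 6 below. By the 1.5-fold rule, which also asks that the interval leave out 1, 0 were called. The rule called 5.5% of kept genes higher and 7.1% lower. PDE12 and MTPAP, a deadenylase and the poly(A) polymerase of mitochondria, were 1.12-fold higher each (intervals 1.06 to 1.19 and 1.04 to 1.2). TRMT10C, of the enzyme that cuts the 5′ ends of transfer RNAs, was 1.09-fold higher (interval 1.02 to 1.17). SLIRP, which with LRPPRC keeps polyadenylated mitochondrial messages stable, had 170 and 137 counts and an interval that included 1. LRPPRC itself had only 2 counts with V1 and 4 with V4 and was not kept. The reason for such low counts was not tested. HSD17B10, a subunit of the same enzyme as TRMT10C, was 1.26-fold lower (interval 1.14 to 1.39). GRSF1, an RNA granule protein that binds the ND6 message, had 147 counts with V1 and 116 with V4, 1.28-fold lower with an interval that reached 1.00. REXO2, the oligoribonuclease and the most abundant of the list, was 1.10-fold lower (interval 1.05 to 1.15), and FASTKD3 had 18 and 11 counts, 1.66-fold lower with an interval that included 1. Of 7 regulators of mitochondrial biogenesis, 2 were found and 0 kept. Listed genes that were not found, here and in the other lists, had no row under the symbols searched. That does not show a lack of expression.

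**Figure D4:**
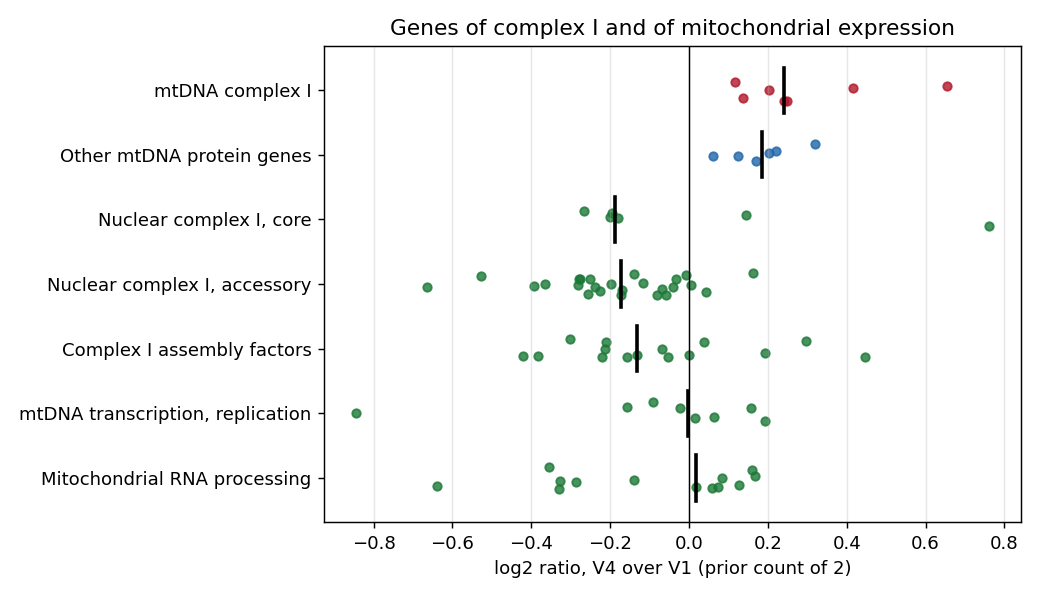
Log2 ratio of V4 over V1 (prior count of 2) for kept genes of each list, 1 point per gene, 1 library per group, with the median as a black bar. Points are spread vertically within a list for visibility. The median is 0.24 for the complex I genes of mitochondrial DNA, 0.19 for the other mitochondrial protein genes and -0.19 and -0.17 for the nuclear core and accessory subunits.

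Outside mitochondrial DNA, 1703 genes had a mean of at least 100 CPM. Those with a log2 ratio nearest to the members' median included POLR2B, ESCO1, AP5M1 and GARS, at ratios of 1.18 each and within 0.0011 of it on the log2 scale. Likeness here rests on 2 libraries, and 26 of the 1703 genes lay within 0.01, so the match is a description only.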

How the data were processed

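The series has 3 samples of 22Rv1 cells, 1 per group. Values are raw read counts by gene symbol as deposited, and the authors used build hg19, per the submitters' processing notes. No aligner, counter, annotation or strand setting is named in the sources used here. The design text mentions technical replicates, while the table has 1 column per line. Columns named for V1 and V4 were tied to samples by title. The number of columns not used was 1, so no ratio over the empty vector was computed, though planned.

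Counts of 21 symbols on several rows were summed, and 22 rows with a date for a symbol were kept unnamed. Genes at a mean CPM of at least 1 were kept. Libraries were scaled by TMM (edgeR 4.0.16, R 4.3.3), log2 ratios used a prior count of 2, and intervals came from scipy 1.17.1. No p-value was computed, as groups have 1 library. Members and lists were chosen with earlier results of these data known. Named genes were MLPH, the genes of mitochondrial DNA and those nearest to the members' median. Per list, they were the most abundant and up to 4 with the largest absolute log2 ratio. Not every gene the rule picks is reported, and HOXB13, PDE12, MTPAP and TRMT10C are reported though outside it. Mitochondrial gene order and lengths came from RefSeq (GRCh38.p14), other lengths (91.8% of kept genes) and sequences from GENCODE v29, and all 7 members matched both. A length from GENCODE is that of the longest transcript of the symbol. Coordinates are left out, since the build of these tables is not hg19. A count of 0, with a floor of 3 counts, allows 0.324 CPM (V1) and 0.312 CPM (V4). Figures used matplotlib 3.10.9.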

Additional observations from a re-analysis of the deposited data

How the results depend on the processing

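No paired analysis was possible because each group has 1 sample and the labels give no replicate numbers, and no library could be left out for the same reason. All 7 members were above 1 under each of 8 planned settings of scaling, filter and prior count, with ND4L between 1.54 and 1.58 and ND3 between 1.06 and 1.09. At the members' counts a prior count can hardly move a ratio, and a filter acts only through the scaling. The settings are therefore not separate checks. The members' median log2 ratio of 0.24 was 0.21 with total counts and 0.20 without ND4L and ND4. Removing a trend with transcript length (lowess, statsmodels 0.14.6), chosen after seeing the data, gave 0.37, and it moved the nuclear complex I median from -0.18 to -0.079. The gain in share of 1.53 points was 1.02 points of all counts and 0.66 points without ND4L and ND4. These gains start from unlike shares, so their points do not compare relative rises. The 1114 genes at least 1.5-fold apart became 301 at a mean CPM of at least 10, where fewer genes are tested, 2463 at 1.2-fold and 565 at 2-fold. DESeq2 1.42.0 median-of-ratios factors, upper-quartile scaling, counts without mitochondrial genes as totals, no filter, and the other prior counts left these values within counting error or within 1.5 times. Low counts limit some nuclear genes and the transfer RNAs, not the members, whose intervals lack any error between cultures.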
